A study of Mus musculus with 15 samples.

Results

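Stem-called cells of the mouse distal small intestine were set against the other cells of the same libraries. A cell counted as stem-called where the authors' cell table gave it the Lgr5 and eGFP stem call, and as other where the table gave it none. Of 6495 cells from the distal small intestine of 5 mice, 1884 were stem-called and 4611 were not; the whole series holds 18919 cells in 15 samples, which are the proximal small intestine, distal small intestine and colon of each mouse. All mice were 6 months old and carried the Lgr5-eGFP-IRES-CreERT2 allele, in which a green fluorescent protein and an inducible recombinase are read from the Lgr5 locus; there was no group without it. This reporter is known to be silent in part of the crypts. High fat diet mice 1, 2 and 3 ate a purified diet with 60% of its energy as fat, and control mice 1 and 2 a purified diet with 10%. The cells went through Seq-Well, in which single cells are caught in small wells with barcoded beads, with a second strand synthesis step, and were counted in unique molecular identifiers (UMIs), each of which stands for 1 captured RNA molecule.

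Lgr5 is a receptor for R-spondins, which strengthen Wnt signalling, and it marks the dividing crypt base columnar cells at the bottom of each intestinal crypt. These cells renew the epithelium: their daughters divide in the crypt above them, become absorptive enterocytes or secretory goblet, enteroendocrine, tuft or Paneth cells, and, apart from the Paneth cells, move up the villus. The distal small intestine is where enterocytes take bile acids back up.

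The call rested almost wholly on Lgr5, and often on a single molecule. A cell was called whenever it held a UMI of either gene, with no exception. Of the 1884 stem-called cells, 1815 had Lgr5 alone, 60 had both and 9 had eGFP alone; 610 (32.4%) had 1 UMI of these genes, 333 had 2 and 941 had 3 or more. The stem-called cells numbered 354 of 1016, 233 of 930 and 501 of 1890 in high fat diet mice 1, 2 and 3, and 231 of 1080 and 565 of 1579 in control mice 1 and 2. The called share averaged 28.8% ± 5.28 in high fat diet mice (SD, n = 3) and 28.6% ± 10.2 in control mice (SD, n = 2; exact permutation test, two-sided p = 1.0, where 0.2 is the smallest p possible). Both genes define the call, so neither is reported as a result.

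The call also moved with depth, and cells that should lack Lgr5 seldom carried it. It was made in 15.1%, 17.7% and 12.7% of cells under 4000 UMIs in high fat diet mice 1 and 2 and control mouse 1, and in 46.0%, 39.1% and 22.2% of their cells with 16000 or more, although control mouse 1 had 28.9% in the bin from 8000 to 16000. In high fat diet mouse 3 and control mouse 2, which had few shallow cells, the shares were 24.6% and 38.4% from 8000 to 16000 UMIs and 28.1% and 35.1% at 16000 or more. Over the distal small intestine it was made in 3 of 207 immune-marker cells, which held at least 2 UMIs of a list of immune genes and no fewer than of the epithelial list (1.45%, exact 95% interval 0.30% to 4.18%, median 3433 UMIs), against 1881 of 6288 remaining cells (29.9%, 28.8% to 31.1%, median 13528 UMIs). With each cell thinned to 3000 UMIs, and shallower cells left out, these shares were 1 of 122 (0.82%) and 993 of 6053 (16.4%). Stem-called cells had a median of 14373.5 UMIs and other cells 12595, and the sums per mouse held from 1607657 to 25491569 UMIs. Libraries shared 5 cell barcodes among the distal samples. These intervals cover counting error only.

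Counts were summed per mouse over stem-called and over other cells, and the 10 sums were compared within mice with edgeR's quasi-likelihood test. Of 11753 genes tested, 3026 were higher in stem-called cells (25.7%) and 2823 lower (24.0%) at an adjusted p under 0.05. With at least a 2-fold difference as well, 376 were higher (3.20%) and 777 lower (6.61%). The median log2 fold change over all genes tested was 0.031. Because a sum mixes cells, more cells of a kind and more RNA per cell cannot be told apart in any value that follows. Levels are CPM, UMI counts of a gene scaled so that the sum totals 1e6, and lists of 5 values run in the order high fat diet mice 1, 2 and 3, then control mice 1 and 2.

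Apart from Lgr5 itself, the genes that mark crypt base columnar cells were higher in stem-called cells throughout. Of 36 such genes in a list, 33 were tested. Fstl1 and Jam3 were too low and Clca3b was not analysed here. The gene lists were chosen with earlier results of these data known, so their counts, here and below, are no independent test. All 33 were higher, 30 of them at least 2-fold, and in each of the 5 mice, with a median log2 fold change of 1.75 against 0.031 over all genes. Olfm4, a secreted glycoprotein of crypt base cells (chr14:79984081-80023139, GRCm38), had 7182, 4324, 4303, 4611 and 3914 CPM in stem-called cells, against 1965, 904, 676, 679 and 271 CPM in other cells (log2 fold change 2.67 ± 0.22, adjusted p = 8.0e-06). Every stem-called sum lay above every other-cell sum for this gene. The transcription factor Ascl2, a Wnt-driven regulator of stem cell identity (chr7:142966829-142969264), had 73.2, 79.0, 73.3, 51.7 and 78.8 CPM in stem-called cells, against 22.2, 17.8, 9.30, 11.0 and 10.2 CPM in other cells (log2 fold change 2.49 ± 0.17, adjusted p = 2.4e-06). Its populations did not overlap either. Slc12a2, a basolateral sodium, potassium and chloride carrier, had 2632, 3819, 2694, 2659 and 2933 CPM in stem-called cells, against 1022, 1249, 1021, 909 and 796 CPM in other cells (log2 fold change 1.55 ± 0.07, adjusted p = 3.9e-07).

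Other members of the list differed by as much. Pdgfa, a growth factor that signals to the surrounding mesenchyme, had 178, 124, 82.2, 152 and 93.4 CPM in stem-called cells, against 37.5, 26.9, 17.7, 24.1 and 22.5 CPM in other cells (log2 fold change 2.24 ± 0.078, adjusted p = 1.0e-07). The list's highest fold change was that of Gkn3, a gastrokine (3.64 ± 0.33), and its lowest that of Ephb2, an ephrin receptor that helps place cells along the crypt (0.39 ± 0.057, adjusted p = 3.1e-04). Smoc2, a matricellular protein, had a log2 fold change of 1.70, the RNA-binding protein Msi1 2.18 and the chromatin-associated Cdca7 1.47. The summed level of the list was 14759, 12882, 10909.5, 11440.1 and 11273 CPM in stem-called cells, against 5143, 3958, 3218, 3295 and 2456 CPM in other cells. The levels in other cells were well above 0.

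**Figure D1:**
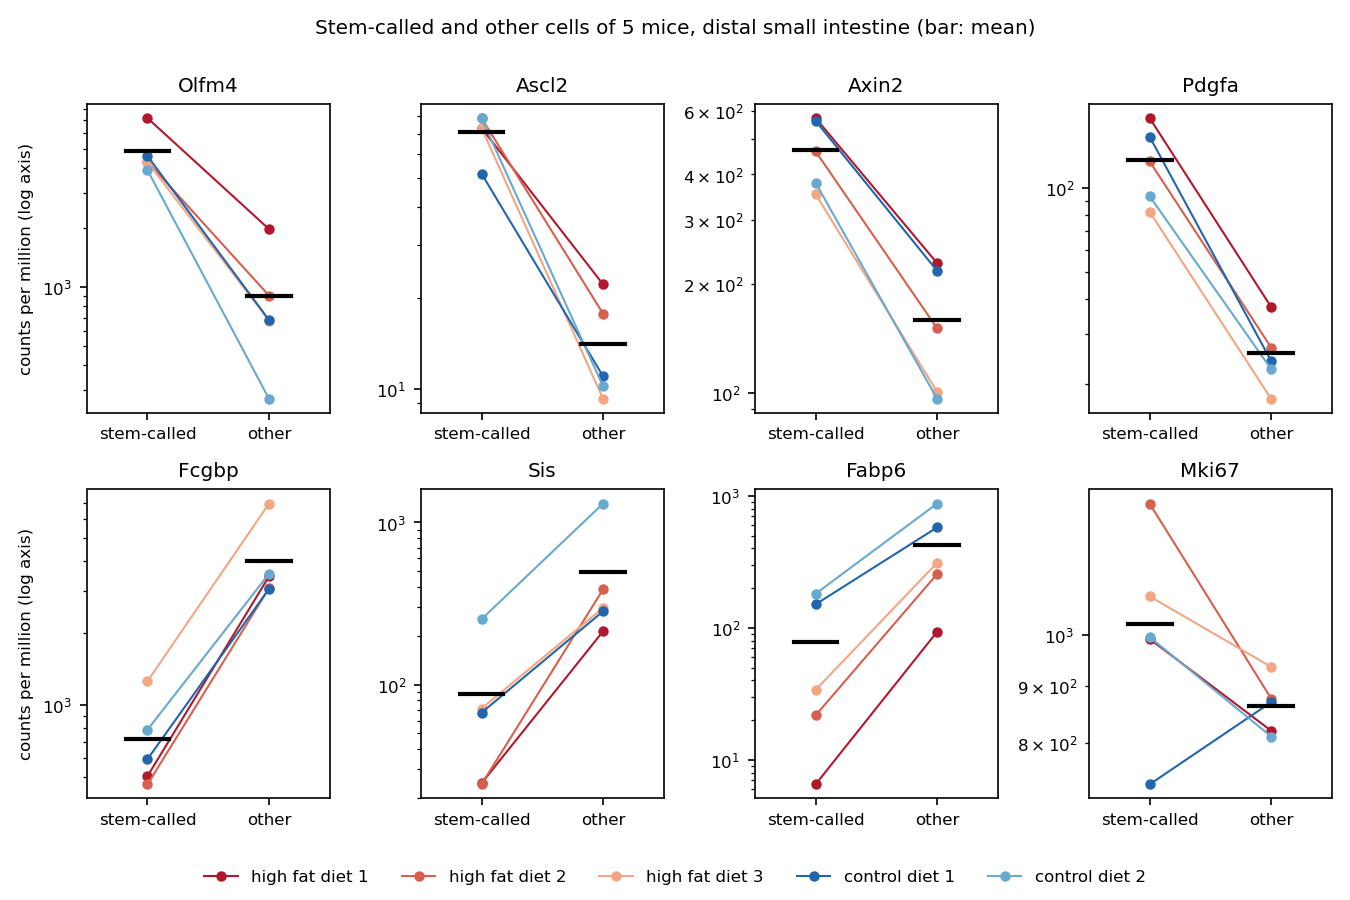
Levels of 8 genes in stem-called (left) and other cells (right) of the distal small intestine, in CPM on a log axis. Each line joins the 2 sums of 1 mouse and each bar is the mean of 5 mice. Olfm4, Ascl2, Axin2 and Pdgfa were higher and Fcgbp, Sis and Fabp6 lower in stem-called cells of every mouse, while Mki67 was higher in 4 of 5.

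Wnt signalling holds crypt cells in the stem state, and it switches on its own brakes. Of 20 tested genes of the Wnt list, which shares 10 genes with the stem cell list, 17 were higher (14 at least 2-fold), none was lower and 3 were not called (median 1.50). Axin2, a scaffold of the complex that degrades beta-catenin and a standard Wnt target (chr11:108920349-108950783), had 572, 463, 353, 562 and 379 CPM in stem-called cells, against 228, 150.5, 101, 217 and 96.2 CPM in other cells (log2 fold change 1.62 ± 0.087, adjusted p = 8.8e-07). The ubiquitin ligases Rnf43 (1.53 ± 0.053) and Znrf3 (1.03), which remove Wnt receptors, were both higher, as was Nkd1, an inhibitor of Dishevelled (2.05). Among receptors and nuclear factors, Fzd7 (1.55), Lef1 (1.93), Tcf7 (0.98) and Myc (1.23) were higher. The co-receptor Lrp6 (0.13), the crypt's main Wnt transcription factor Tcf7l2 (0.095) and the cyclin Ccnd2 (-0.13) did not pass the test. Sp5, a transcription factor that Wnt switches on, had 41.6, 24.9, 23.0, 31.9 and 16.8 CPM in stem-called cells, against 12.2, 5.85, 3.73, 4.16 and 2.55 CPM in other cells (log2 fold change 2.40 ± 0.17, adjusted p = 2.8e-06), and Tnfrsf19, also named Troy, a receptor of the tumour necrosis factor family, had a log2 fold change of 2.68 ± 0.14.

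Promoter windows of these genes were searched for the letters that TCF and LEF proteins, the nuclear partners of beta-catenin, are known to bind. RefSeq's promoter windows (GRCm38.p6, 250 bases before to 50 after the start of the gene) were matched for 24 of the 35 genes of the stem cell and Wnt lists that were at least 2-fold higher. The letters CTTTGAT and CTTTGTT, core forms of the TCF and LEF motif, were searched on both strands. They stood in 2 of the 24 windows (8.33%), those of Sp5 and Fzd7, against 5.97% of 8777 windows of tested genes and 9.33% of all 32851 windows. They also stood in 4 of 19 windows (21.1%) of enterocyte, digestive and lipid absorption genes that were at least 2-fold lower; a match is only a match of letters, and its absence says nothing beyond this window. The 250 bases before the start are given for both genes with matches, and for Ascl2 and Olfm4, which had none, with matched letters in capitals. They run 5′ to 3′ on the gene's strand, plus for Sp5 (chr2:70474673-70474922), Fzd7 (chr1:59481897-59482146) and Olfm4 (chr14:80000052-80000301) and minus for Ascl2 (chr7:142969265-142969514). RefSeq's start of Olfm4 lies within the longer GENCODE span given above.
Sp5: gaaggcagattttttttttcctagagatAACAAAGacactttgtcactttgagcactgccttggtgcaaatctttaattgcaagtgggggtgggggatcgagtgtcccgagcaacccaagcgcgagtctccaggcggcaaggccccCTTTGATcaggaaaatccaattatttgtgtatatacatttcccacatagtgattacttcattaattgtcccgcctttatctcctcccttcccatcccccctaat
Fzd7: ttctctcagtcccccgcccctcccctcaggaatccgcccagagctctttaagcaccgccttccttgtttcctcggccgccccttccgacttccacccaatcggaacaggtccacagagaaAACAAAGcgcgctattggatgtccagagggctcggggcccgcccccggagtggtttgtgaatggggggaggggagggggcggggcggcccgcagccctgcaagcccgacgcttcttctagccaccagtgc
Ascl2: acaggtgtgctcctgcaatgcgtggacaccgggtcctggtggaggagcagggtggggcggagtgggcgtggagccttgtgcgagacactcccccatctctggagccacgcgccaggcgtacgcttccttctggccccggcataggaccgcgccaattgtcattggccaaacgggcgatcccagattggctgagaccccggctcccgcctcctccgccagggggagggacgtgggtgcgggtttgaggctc
Olfm4: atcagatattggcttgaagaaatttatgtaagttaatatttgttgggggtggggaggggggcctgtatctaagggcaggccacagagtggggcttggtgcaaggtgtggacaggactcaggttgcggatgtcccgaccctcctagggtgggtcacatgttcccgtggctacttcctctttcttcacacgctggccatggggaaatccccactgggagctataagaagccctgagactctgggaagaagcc

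Some other genes with large increases were not on these lists. By a rule that took the 15 largest fold changes among genes that reached 20 CPM and moved one way in all mice, Gm830 came first, with 95.5, 91.4, 43.1, 110.1 and 73.6 CPM in stem-called cells, against 13.7, 5.85, 2.71, 4.89 and 1.25 CPM in other cells (log2 fold change 4.11 ± 0.31, adjusted p = 4.5e-06). Ccdc3 (3.73 ± 0.22) and the retinol dehydrogenase Rdh1 (3.47 ± 0.28) followed. Cbs, the enzyme that joins homocysteine with serine on the way to cysteine, had 28.6, 23.6, 16.6, 40.2 and 25.4 CPM in stem-called cells, against 8.78, 3.28, 2.28, 5.79 and 1.63 CPM in other cells (log2 fold change 2.82 ± 0.26, adjusted p = 1.9e-05). The urea transporter Slc14a1 had 104 ± 21.1 CPM in stem-called cells and 14.5 ± 9.34 CPM in other cells (SD, n = 5; log2 fold change 2.98 ± 0.20, adjusted p = 2.1e-06). Sfrp5, a secreted Wnt antagonist, had a log2 fold change of 2.50 ± 0.24, Limch1 2.59 ± 0.12 and Rgcc 2.49 ± 0.22. The sodium channel subunit Scn2b (2.46 ± 0.17) and the nuclear receptor Nr2e3 (2.42 ± 0.20) were among the 15 too, but both are members of the stem cell list. Defa3, a defensin of Paneth cells, was also among the 15 (log2 fold change 2.60 ± 0.41, adjusted p = 4.8e-04), and its populations overlapped between mice.

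Among the Notch genes that passed the test, those higher in stem-called cells included 2 receptors and a target, and the 2 lower ones were ligands. Notch signalling keeps crypt cells out of the secretory fate, with ligands shown by neighbouring cells. Of 16 tested genes of the pathway, 7 were higher (1 of them 2-fold) and 2 lower, with a median log2 fold change of 0.15. Over all genes tested, 25.7% were higher and 24.0% lower. Hes6 was also among the higher genes (0.58). The receptors Notch1 (log2 fold change 1.55 ± 0.12, adjusted p = 5.5e-06) and Notch2 (0.98) and the target gene Hes1 (log2 fold change 0.98 ± 0.068, adjusted p = 2.8e-06) were higher. Hes1 had 152, 268, 107, 123 and 187 CPM in stem-called cells, against 72.4, 127, 59.2, 71.9 and 84.5 CPM in other cells. The ligands Dll1 (log2 fold change -1.10 ± 0.11, adjusted p = 2.2e-05) and Dll4 (-0.69) were lower. Jag1 (0.11) and Nrarp (0.19) did not pass the test.

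Among 10 genes of secretory commitment, 1 was higher and 7 were lower, all 7 at least 2-fold. Atoh1, the factor that starts secretory fate, had 16.3, 36.1, 70.7, 19.3 and 23.2 CPM in stem-called cells, against 69.9, 85.9, 113, 42.9 and 70.5 CPM in other cells (log2 fold change -1.31 ± 0.16, adjusted p = 1.1e-04). Neurog3, which starts the enteroendocrine fate, had a log2 fold change of -1.95 ± 0.58, Insm1 -1.72, Gfi1 -1.32, and Spdef, a factor of goblet cell maturation, -1.55. Sox4 was the gene that was higher (374, 445, 261, 270.2 and 413 CPM in stem-called cells, against 190.3, 175, 98.9, 108 and 131 CPM in other cells; log2 fold change 1.34 ± 0.077, adjusted p = 1.1e-06). The lower level of Atoh1 held in all 5 mice, although the ranges of the populations overlapped between mice.

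**Figure D2:**
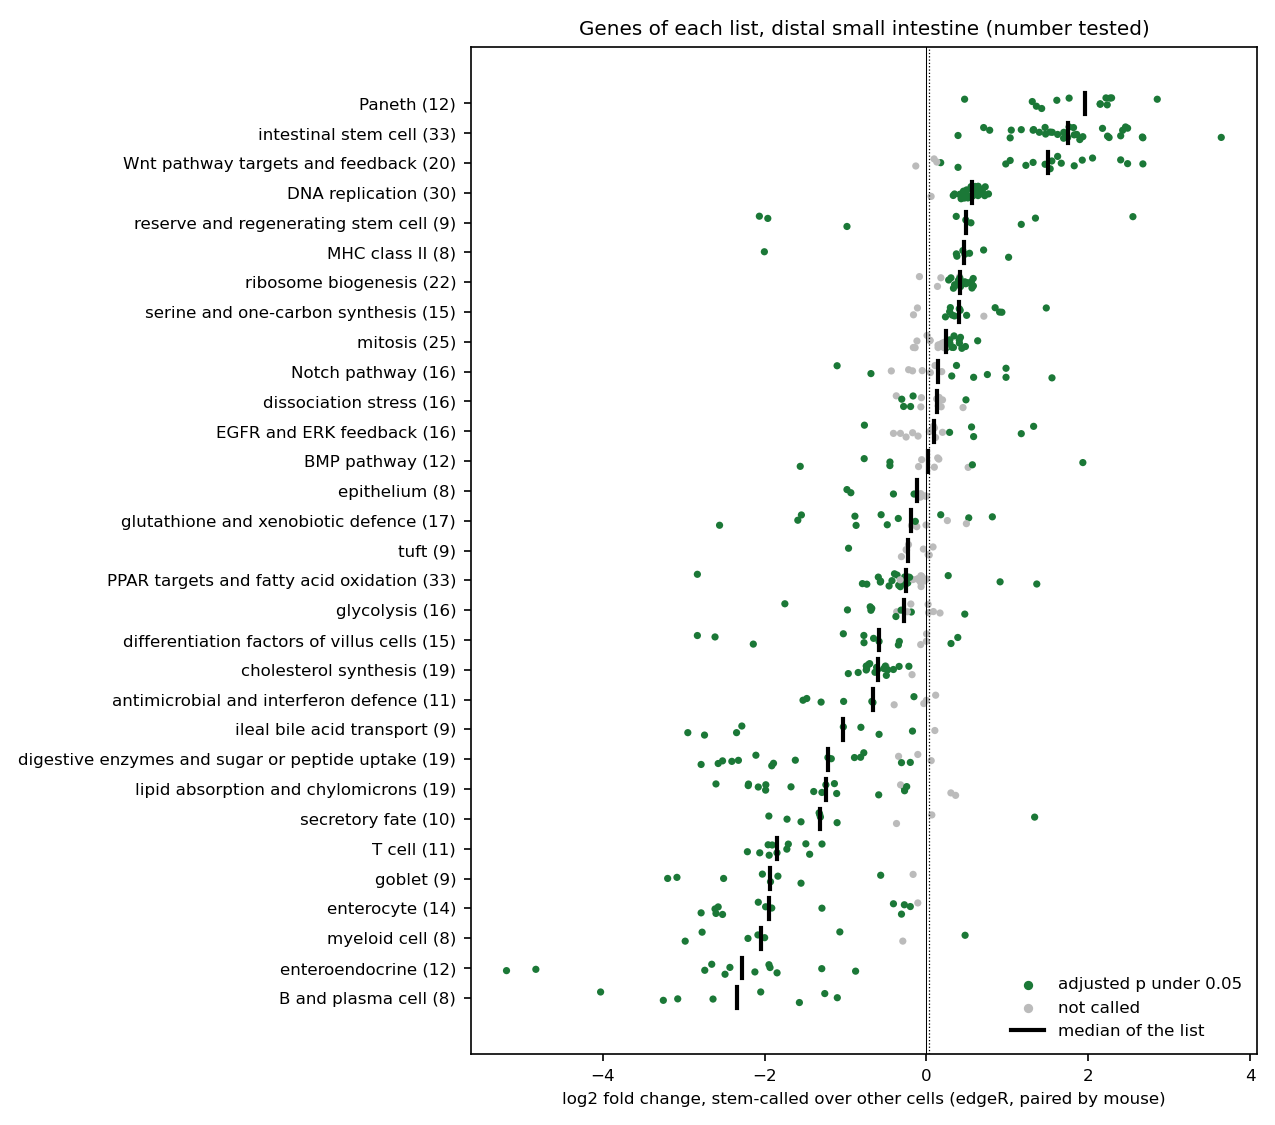
Log2 fold changes of stem-called over other cells for the genes of each list with at least 8 tested genes. Each point is a gene, green where its adjusted p is under 0.05, and each bar is the list's median. The dotted line marks the median of all genes tested (0.031). Crypt base, Wnt and Paneth genes stand to the right, and genes of enterocyte, goblet, enteroendocrine and immune cells to the left.

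Genes of DNA synthesis were higher by a modest amount that differed between mice. Of 30 DNA replication genes, 29 were higher, none 2-fold, with a median log2 fold change of 0.56, and 21 were higher in all 5 mice. The list's median log2 ratio was 0.47, 0.50, 0.74, 0.13 and 0.81 by mouse, lowest in control mouse 1. Cdt1, which licenses replication origins, had 115, 95.2, 93.7, 95.2 and 91.3 CPM in stem-called cells, against 75.4, 68.6, 54.8, 62.3 and 50.1 CPM in other cells (log2 fold change 0.68 ± 0.059, adjusted p = 1.0e-05), and the polymerase subunit Pola1 a log2 fold change of 0.73 ± 0.08. Of 25 mitosis genes, 12 were higher and none lower (median 0.25), where 25.7% of all genes tested were higher and 24.0% lower. Ttk, a spindle checkpoint kinase, had a log2 fold change of 0.63 ± 0.12 and Cenpf, a kinetochore protein, of 0.48 ± 0.10. Mki67, the usual marker of dividing cells, had 992, 1312, 1083, 734 and 995 CPM in stem-called cells, against 820.1, 877, 936, 870.1 and 810.4 CPM in other cells, and the difference did not pass the test (log2 fold change 0.22 ± 0.10, adjusted p = 0.09). The share of a cell's UMIs in cell cycle genes had a median of 0.401%, 0.397%, 0.639%, 0.277% and 0.512% in stem-called cells of the 5 mice, against 0.353%, 0.260%, 0.290%, 0.290% and 0.195% in other cells, higher in 4 of 5 mice (exact sign-flip test, two-sided p = 0.125, where 0.0625 is the smallest p possible). Among cells above the distal median of that share, chosen in both populations, all 33 stem cell genes were still higher (median 1.39). There, 14 replication genes were higher and 1 lower (median 0.15), and 1 mitosis gene was higher and 9 lower (median -0.12). Because the share is made of these same replication and mitosis genes, the choice of cells shapes their values, and no conclusion is drawn from them.

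Genes of protein synthesis capacity rose with them. Of 22 ribosome biogenesis genes, 18 were higher and none lower (median 0.42). Ncl, the nucleolar protein nucleolin, had 1675, 1569, 1746, 1508 and 1816 CPM in stem-called cells, against 1139, 1031, 1123, 1163 and 1164 CPM in other cells (log2 fold change 0.56 ± 0.051, adjusted p = 1.6e-05). Npm1 (0.58 ± 0.057), Nop56 (0.58 ± 0.058) and Rrs1 (0.56 ± 0.055) differed by about the same. Of 79 tested cytosolic ribosomal protein genes, 55 were higher and 2 lower (median 0.30), and none differed 2-fold.

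Central metabolism differed pathway by pathway. Of 15 genes of serine and one-carbon synthesis, which supply purines and thymidylate, 12 were higher and none lower. Phgdh, the entry enzyme of serine synthesis, had 31.8, 28.6, 47.4, 18.2 and 19.9 CPM in stem-called cells, against 16.6, 15.7, 14.8, 6.70 and 4.38 CPM in other cells (log2 fold change 1.48 ± 0.17, adjusted p = 7.1e-05). The purine enzymes Paics (0.90 ± 0.063) and Ppat (0.93 ± 0.10) and the serine hydroxymethyltransferase Shmt1 (0.85 ± 0.075) were higher too. Of 19 cholesterol synthesis and uptake genes, 17 were lower, none 2-fold, and none was higher (median -0.60). Hmgcs1, an early enzyme of the pathway, had 78.0, 79.0, 213, 78.7 and 116 CPM in stem-called cells, against 130.4, 129, 324, 131 and 209 CPM in other cells (log2 fold change -0.74 ± 0.053, adjusted p = 3.5e-06). Sc4mol (-0.97) and Cyp51 (-0.71) were lower likewise.

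Fatty acid oxidation genes and targets of PPAR factors were mostly lower, with exceptions. Of 33 tested, 3 were higher and 19 lower (median -0.25), where 25.7% of all genes tested were higher and 24.0% lower. Cpt1a, which admits long fatty acids to the mitochondrion, had 458, 243, 273, 196 and 119 CPM in stem-called cells, against 592, 388, 369, 321 and 205 CPM in other cells (log2 fold change -0.59 ± 0.069, adjusted p = 7.0e-05). Cpt2 (-0.57 ± 0.077), the factor Ppara (-0.79 ± 0.082) and the liver and gut factor Creb3l3 (-2.83 ± 0.22) were lower. For Creb3l3, neither population of control mouse 1 held a UMI, which sets no limit, since few genes were seen in under 5 cells of a library. Among the higher genes were Acot1, a thioesterase, and Plin2, a lipid droplet protein. Acot1 had 76.3, 31.7, 29.6, 10.5 and 11.8 CPM in stem-called cells, against 35.8, 15.9, 13.6, 2.72 and 2.38 CPM in other cells (log2 fold change 1.36 ± 0.18, adjusted p = 1.4e-04), and Plin2 differed by 0.27 on the log2 scale. Acot1 was higher in stem-called cells of every mouse on both diets, although the populations overlapped between mice.

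Glycolysis genes followed the same direction: of 16, 8 were lower and 1 higher (median -0.27), against 24.0% and 25.7% of all genes tested. Pfkp, a phosphofructokinase, had 41.9, 23.6, 64.8, 56.1 and 54.6 CPM in stem-called cells, against 151, 139, 189.7, 154 and 176 CPM in other cells (log2 fold change -1.75 ± 0.10, adjusted p = 1.1e-06), and the populations did not overlap. Ldha (-0.69 ± 0.054) and Aldoa (-0.69 ± 0.068) were lower, and Pfkm, another phosphofructokinase, was the higher gene (log2 fold change 0.47 ± 0.15, adjusted p = 0.021). Of 76 nuclear-encoded subunit genes of oxidative phosphorylation, 53 were lower and 2 higher (median -0.20), among them Sdhb (-0.36) and Uqcrfs1 (-0.35). Of 16 tested genes of the mitochondrial genome, edgeR called none (0 at an unadjusted p under 0.05; limma voom and DESeq2 called none either). The median mitochondrial share of UMIs averaged 15.8% in stem-called cells and 15.5% in other cells (SD 4.01 and 4.25, n = 5 each; exact sign-flip test, two-sided p = 0.4375).

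Genes of the absorptive villus were lower in stem-called cells. Of 14 enterocyte markers, 13 were lower (9 at least 2-fold) and none higher. Of 19 lipid absorption genes, 16 were lower (12 at least 2-fold), and of 19 digestive enzyme and nutrient uptake genes, 16 (11 at least 2-fold); both lists share genes with the enterocyte list, 5 and 7 of them. Sis, the brush border sucrase-isomaltase (chr3:72888557-72967863), had 24.6, 24.3, 71.2, 67.1 and 253 CPM in stem-called cells, against 213, 387, 298, 284 and 1309 CPM in other cells (log2 fold change -2.57 ± 0.19, adjusted p = 4.7e-06). Control mouse 2 had the highest level in both populations. Alpi, intestinal alkaline phosphatase, had 2.62, 1.87, 4.60, 3.85 and 12.4 CPM in stem-called cells, against 22.5, 56.6, 36.4, 19.7 and 61.5 CPM in other cells (log2 fold change -2.78 ± 0.19, adjusted p = 2.7e-06). Fabp1, a fatty acid carrier of the cytosol, had 6.87 ± 9.65 CPM in stem-called cells and 30.6 ± 34.7 CPM in other cells (SD, n = 5; log2 fold change -2.08 ± 0.25, adjusted p = 1.5e-04). Neither population of control mouse 1 held a Fabp1 UMI, and the gene was lower in the remaining 4 mice. Few genes were seen in under 5 cells of a library, so this 0, which enters the mean and SD, sets no limit.

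Other genes of absorption gave the same picture. Apoa1, an apolipoprotein of chylomicrons, had a log2 fold change of -2.60 ± 0.15, the cholesterol transporter Npc1l1 -1.98 ± 0.094, and Dgat1, which makes triglyceride, -1.14 ± 0.049. Krt20, a keratin of differentiated cells, had 39.2, 43.5, 107, 71.0 and 85.2 CPM in stem-called cells, against 293, 502, 498, 293 and 521 CPM in other cells (log2 fold change -2.61 ± 0.15, adjusted p = 1.1e-06). Enpep had a log2 fold change of -2.32 ± 0.17. The sodium and glucose carrier Slc5a1 was the enterocyte marker that did not pass the test (-0.11 ± 0.12). Among villus differentiation factors, 10 of 15 were lower and 2 higher, against 24.0% and 25.7% of all genes tested. Maf had a log2 fold change of -2.14 ± 0.18, Hnf4g of -0.77 and Klf4 of -0.77. Cdx2 and Hnf4a, which act along the whole crypt and villus, were not called (0.0018 and -0.00037).

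Bile acid recovery, the trade of this segment, was among the groups with lower levels. Of 9 tested genes, 8 were lower (5 at least 2-fold) and none higher. Fabp6, the ileal bile acid binding protein (chr11:43596049-43601540), had 6.54, 21.8, 33.9, 151 and 181 CPM in stem-called cells, against 93.7, 256, 312, 577 and 875 CPM in other cells (log2 fold change -2.74 ± 0.21, adjusted p = 5.4e-06). The control mice had the highest levels in both populations. Slc10a2, the apical bile acid carrier, had a log2 fold change of -2.95 ± 0.40, and Slc51a and Slc51b, the subunits of the basolateral carrier, of -2.35 ± 0.16 and -2.28 ± 0.10. The bile acid receptor Nr1h4, also named FXR, was lower as well (34.2, 39.2, 46.9, 49.0 and 24.4 CPM in stem-called cells, against 68.9, 91.5, 95.7, 79.3 and 51.7 CPM in other cells; log2 fold change -1.03 ± 0.068, adjusted p = 2.1e-06).

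Goblet and enteroendocrine genes were lower too. Of 9 goblet genes, 8 were lower, 7 at least 2-fold. Fcgbp, a mucus protein (chr7:28071236-28120862), had 503, 465, 1255, 592 and 786 CPM in stem-called cells, against 3446, 3078, 6944, 3054 and 3533 CPM in other cells (log2 fold change -2.51 ± 0.077, adjusted p = 8.8e-08). Zg16, a lectin of goblet granules, had 227 ± 226 CPM in stem-called cells and 1603 ± 1174 CPM in other cells (SD, n = 5; log2 fold change -3.20 ± 0.35, adjusted p = 4.8e-05), Clca3, which stands for the mucus protein gene now named Clca1, a log2 fold change of -3.08 ± 0.38, Tff3 of -1.93 ± 0.059 and Agr2 of -2.03 ± 0.14. All 12 enteroendocrine genes were lower, 11 at least 2-fold. Nts, which encodes neurotensin, had the lowest fold change among the named genes (0.872, 3.11, 1.53, 0 and 2.64 CPM in stem-called cells, against 1.13, 188, 23.2, 0 and 136 CPM in other cells; log2 fold change -5.19 ± 0.34, adjusted p = 3.9e-06). Control mouse 1 had no Nts UMI in either population, which sets no limit, since few genes were seen in under 5 cells of a library. Sst, somatostatin, had 2.40, 0, 2.35, 2.20 and 5.44 CPM in stem-called cells, against 107, 21.8, 50.1, 5.07 and 160.0 CPM in other cells (log2 fold change -4.83 ± 0.21, adjusted p = 3.7e-07). Chga (-2.43 ± 0.28) and Pyy (-2.65 ± 0.40) were lower as well. Of 9 tuft cell genes, Lrmp alone was called (log2 fold change -0.96 ± 0.31, adjusted p = 0.026); the defining factor Pou2f3 had a log2 fold change of -0.037 and Dclk1 of 0.082.

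Paneth cell genes went against this direction. Paneth cells stand between the stem cells at the crypt base and secrete defensins and lysozyme. All 12 tested Paneth genes were higher in stem-called cells, 11 at least 2-fold (median 1.96), but 6 of them were higher in all 5 mice. Lyz1, lysozyme, had 830.3, 3073, 4803, 605 and 637 CPM in stem-called cells, against 459, 2216, 1077, 137 and 115 CPM in other cells (log2 fold change 1.61 ± 0.26, adjusted p = 5.4e-04). Their summed level was 2049, 11554, 20469, 3762 and 2935 CPM in stem-called cells, against 1647, 8163, 4349.9, 784 and 681 CPM in other cells, and the stem-called sums differed more between mice than between the populations of any 1 mouse. Mptx2 had a log2 fold change of 2.85 ± 0.51, AY761184 of 2.27 ± 0.46 and Defa17 of 1.76 ± 0.33; the defensin genes are near-identical copies, and how the authors' counting split reads among them is not given in the sources used here.

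The Paneth difference changed with the cells, the depth and the mice used. Cells with at least 1% of their UMIs in Paneth genes made up 1.98%, 5.15%, 10.6%, 0.87% and 1.59% of stem-called cells, against 1.51%, 7.46%, 5.33%, 0.71% and 1.08% of other cells (higher in 4 of 5 mice; exact sign-flip test, two-sided p = 0.5625). With those 83 stem-called and 153 other cells left out, 2 of 11 Paneth genes were higher and 2 lower (median 0.063), and Defa17 had a log2 fold change of -0.20. The cells left out were chosen by these same Paneth genes, so a smaller difference without them was partly built in. With the call and the sums both made at 3000 UMIs per cell, 1 of 11 was higher and none lower (median -0.037), and without high fat diet mouse 3, 9 of 12 were higher. In the full comparison 25.7% of all genes tested were higher and 24.0% lower. These shares are not given for the other settings, so the counts out of 11 are not read as particular to Paneth genes. The stem cell list had a median of 1.78 without the Paneth-rich cells and 1.45 at 3000 UMIs.

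**Figure D3:**
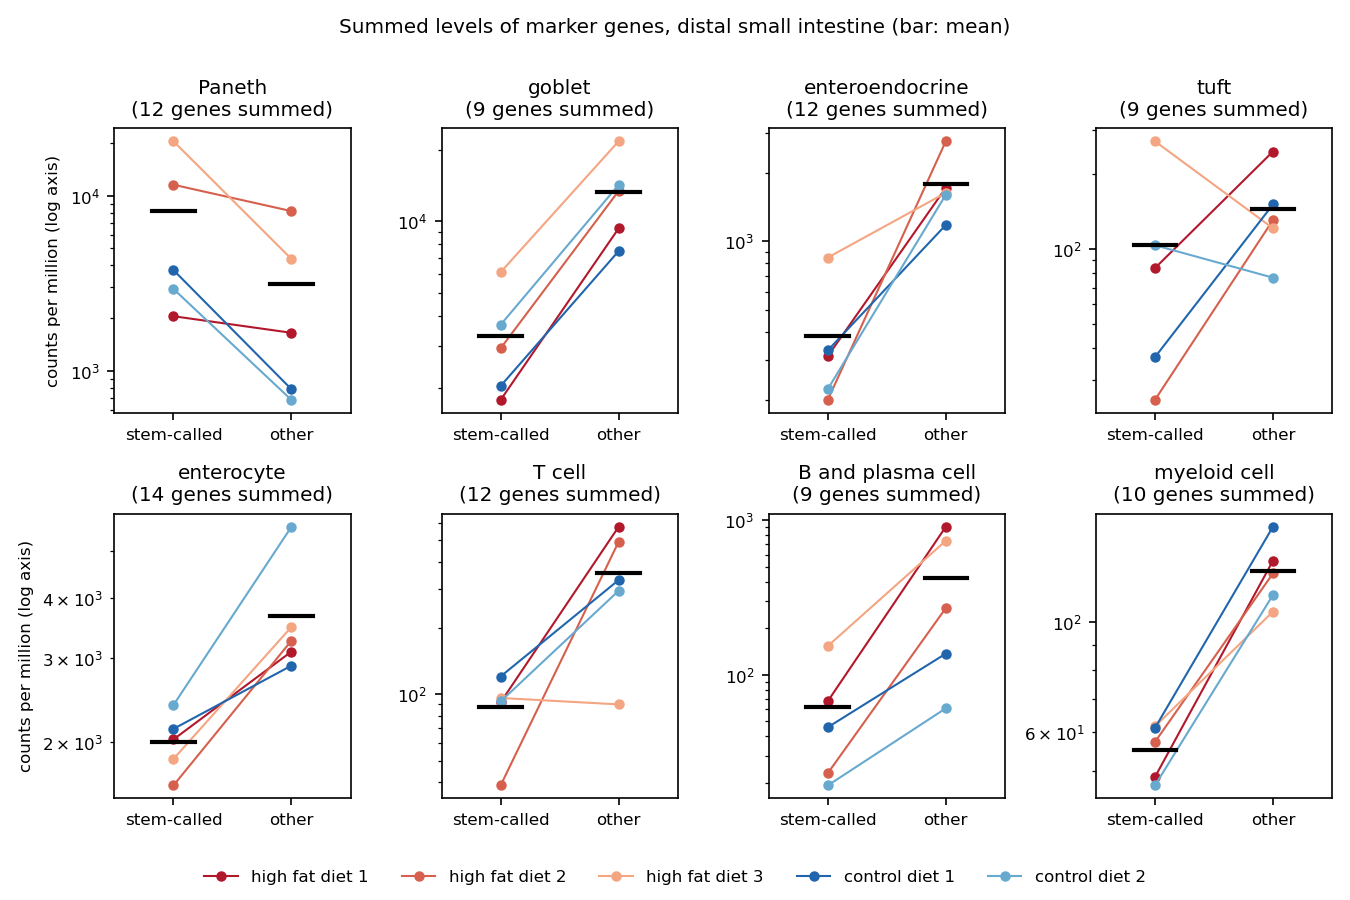
Summed levels of 8 lists of cell type markers in stem-called (left) and other cells (right) of the distal small intestine, in CPM on a log axis. Each line joins the 2 sums of 1 mouse, and each bar is the mean of 5 mice. Goblet, enteroendocrine, enterocyte, B and plasma, and myeloid markers were lower in stem-called cells of all 5 mice. The Paneth sum was higher in all 5.

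Markers of immune cells were lower in stem-called cells. All 11 T cell genes and all 8 B and plasma cell genes tested were lower, at least 2-fold each, and so were 6 of 8 myeloid genes, while 1 of these was higher (Cd14, log2 fold change 0.48 ± 0.16, adjusted p = 0.028). The T cell sum was 92.0, 38.6, 96.3, 121 and 92.8 CPM in stem-called cells, against 577, 493, 90.0, 331 and 295 CPM in other cells, lower in 4 of 5 mice, and no member was at 0 in stem-called cells over all mice. Igha, the heavy chain of immunoglobulin A, had 13.7, 5.60, 95.4, 3.30 and 1.55 CPM in stem-called cells, against 432, 121, 372, 8.15 and 8.68 CPM in other cells (log2 fold change -3.07 ± 0.41, adjusted p = 1.7e-04). Cells with immune markers numbered 3 of 1884 stem-called and 204 of 4611 other cells. Without them, 1 of 10 T cell genes and none of 5 B and plasma cell genes was called lower, and none was called higher. The immune list that set these cells apart shares genes with both of these lists, so the loss of calls was partly built in.

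MHC class II genes were mostly higher, against the direction of the immune markers. Class II molecules show peptides to helper T cells, and intestinal epithelium is known to express them. Of 8 genes, 7 were higher and 1 lower (median 0.46). Cd74, the invariant chain, had 590.3, 285, 284, 319 and 350.0 CPM in stem-called cells, against 453, 188, 176, 218 and 247 CPM in other cells (log2 fold change 0.53 ± 0.05, adjusted p = 1.8e-05). H2-Ab1 (0.45 ± 0.064), H2-Eb1 (0.71 ± 0.087) and the transactivator Ciita (1.02 ± 0.16) were higher. H2-DMb2 was lower (1.71 ± 2.28 CPM in stem-called cells and 5.61 ± 4.43 CPM in other cells; SD, n = 5; log2 fold change -2.002 ± 0.36, adjusted p = 0.0012). Without the immune-marker cells, all 7 genes still tested were higher (median log2 fold change 0.79), but Cd74 is itself in the immune list that set those cells apart. With Cd74 left out of that list, an alternative added after seeing the data, all 7 were higher as well (median 0.76).

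Within the stem-called cells, genes of the crypt base were graded by the number of Lgr5 and eGFP UMIs. For Olfm4, cells with 0, 1, 2 and 3 or more such UMIs averaged 899 ± 638, 3291 ± 1706, 4478 ± 1655 and 6006 ± 1144 CPM (SD, n = 5 mice), and for Pdgfa 25.7 ± 7.40, 64.8 ± 35.9, 119 ± 45.5 and 173 ± 57.8 CPM. Axin2 averaged 158 ± 62.3, 346 ± 125, 460.2 ± 131 and 546 ± 109 CPM over the same classes, and the enterocyte gene Sis 498 ± 457, 201 ± 298, 74.7 ± 57.4 and 39.8 ± 28.4 CPM. Olfm4, Axin2 and Pdgfa stood higher in each class than in the one before it, on average, while Sis stood lower. Mki67 showed no such order, at 863 ± 50.4, 1094 ± 269, 881 ± 211 and 983 ± 242 CPM.

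Since a deeper cell has more UMIs of any gene, cells with 3 or more were set against cells with 1 in equal numbers per depth bin of each mouse, a comparison added after the data had been seen. Of 9195 genes, 394 were higher (4.28%) and 461 lower (5.01%) by edgeR's paired test. Of 33 tested stem cell genes, 29 were higher and none lower (median 0.83, against -0.006 over all genes). Pdgfa (log2 fold change 1.57 ± 0.11, adjusted p = 3.2e-06) and Limch1 (log2 fold change 1.46 ± 0.14, adjusted p = 4.3e-05) were higher, as were Slc14a1 (1.40) and Sorbs2 (1.09). Dmbt1, a mucosal scavenger protein, was lower (log2 fold change -2.22 ± 0.10, adjusted p = 2.1e-08), as were Fabp6 (log2 fold change -2.74 ± 0.23, adjusted p = 1.5e-05), Sis (log2 fold change -2.45 ± 0.25, adjusted p = 7.5e-05), Tff3 (-1.66) and Zg16 (-1.64). In high fat diet mouse 1, Fabp6 went the other way, at 4.22 CPM in cells with 3 or more UMIs and 1.73 CPM in cells with 1.

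The Paneth genes took the other direction in this comparison: of 12, 10 were lower in cells with 3 or more UMIs and none higher (median -3.09). Lyz1 averaged 801 ± 881, 2757 ± 1643, 2709 ± 4129 and 1237 ± 1554 CPM in cells with 0, 1, 2 and 3 or more UMIs, with an SD near or above the mean in 3 of the 4 classes. Of the replication genes 2 of 30 were higher and none lower, and of the mitosis genes none of 25 was higher and 1 lower. Leaving out control mouse 2 gave 164 genes higher and 168 lower, and leaving out high fat diet mouse 3 gave 225 and 245.

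**Figure D4:**
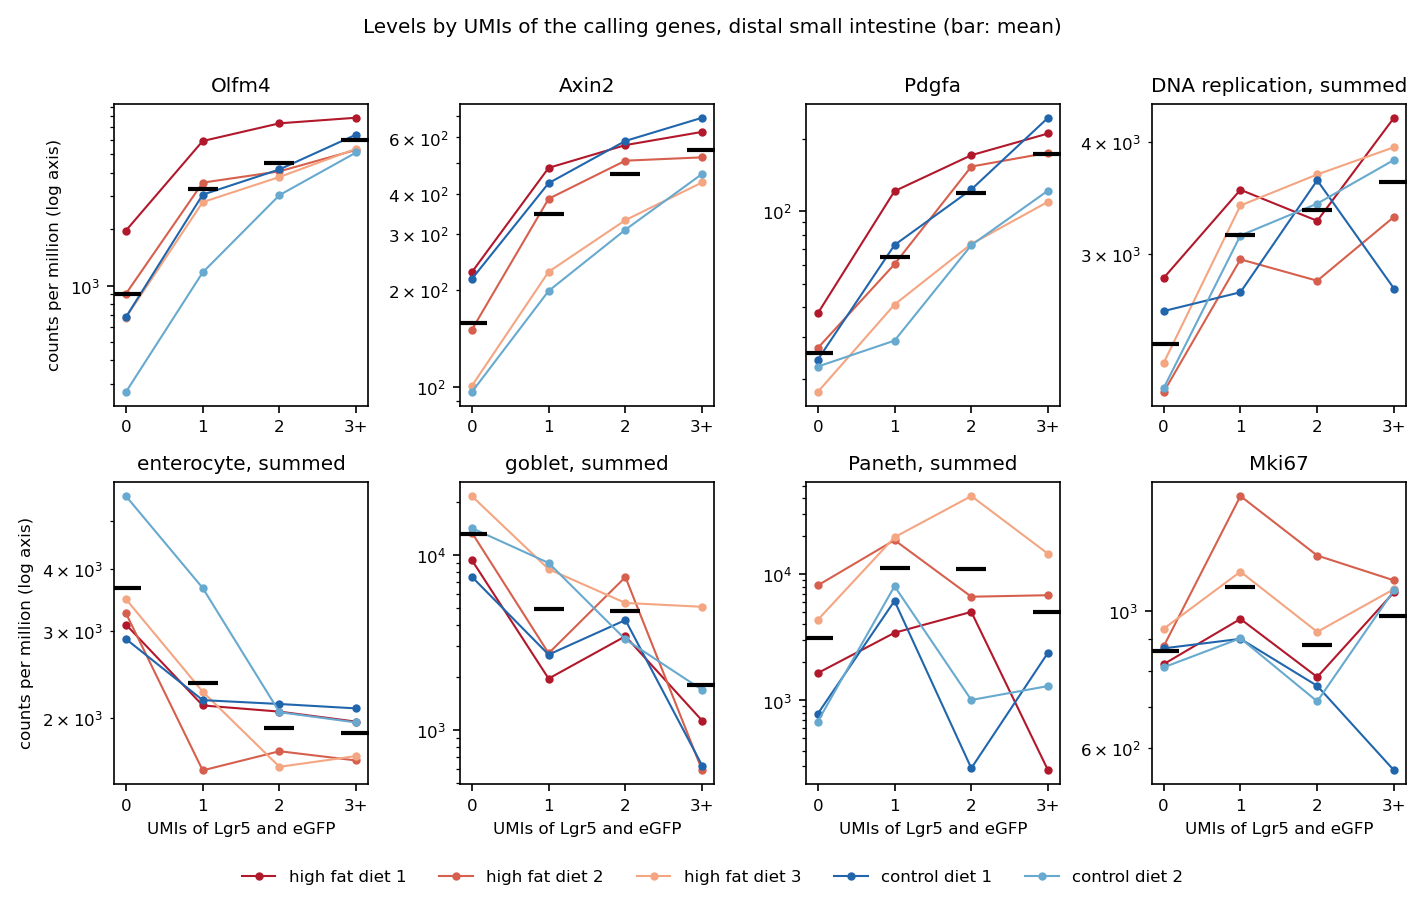
Levels, in CPM on a log axis, in cells of the distal small intestine with 0, 1, 2 and 3 or more UMIs of Lgr5 and eGFP, for 4 genes and 4 summed lists. Each line is 1 mouse and each bar the mean of 5. Olfm4, Axin2 and Pdgfa were higher and goblet genes lower in the class with 3 or more than in the class with 0 in every mouse.

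Diet made no difference to the stem-called effect that passed the test. The effect in 3 high fat diet mice was compared with that in 2 control mice as an interaction in edgeR, and of 11753 genes 0 were called higher and 0 lower (0% each), with 317 at an unadjusted p under 0.05; limma voom called 0 as well. The smallest p was that of Fabp6, whose log2 ratio of stem-called to other cells was -3.74, -3.53 and -3.18 in the high fat diet mice and -1.93 and -2.27 in the control mice (difference -1.27 ± 0.16, adjusted p = 0.14). For the immediate early gene Fos the ratios were -0.40, -0.57 and -0.44 in the high fat diet mice and 0.79 and 0.35 in the control mice (difference -0.99 ± 0.13, adjusted p = 0.14). The ratios of both diets did not overlap for either gene. Both genes were picked by their small p, so this separation is no added support for a diet effect. With the call and sums at 3000 UMIs per cell, 16 genes were called higher and 11 lower, and without high fat diet mouse 3 none higher and 23 lower.

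The stem-called effect was then compared between the distal and the proximal small intestine, with each library's sums paired. Of 12503 genes, the effect was higher in the distal segment for 66 (0.528%) and lower for 91 (0.728%). The protein-coding gene of unknown role 2210407C18Rik had a log2 fold change of 2.11 in the distal small intestine, against 0.39 in the proximal small intestine (difference 1.68 ± 0.17, adjusted p = 3.8e-04). Its levels were 239.7 ± 90.8 CPM in stem-called and 56.6 ± 26.8 CPM in other distal cells, and 352 ± 43.4 and 259 ± 21.7 CPM in those of the proximal small intestine (SD, n = 5). For Ckb, the brain-type creatine kinase, the effect was 0.76 in the distal small intestine, against 0.033 in the proximal small intestine (difference 0.68 ± 0.089, adjusted p = 0.002), and for Abcb1a, a multidrug transporter, 0.20 in the distal small intestine, against -0.75 in the proximal small intestine (difference 0.91 ± 0.10, adjusted p = 3.8e-04). Casp6, a caspase, had an effect of 0.009 in the distal small intestine, against -0.81 in the proximal small intestine (difference 0.76 ± 0.095, adjusted p = 0.0015), Rtn4rl1 of 1.44 in the distal small intestine, against 0.55 in the proximal small intestine (difference 0.87 ± 0.12, adjusted p = 0.0035) and Agpat3, an enzyme of phospholipid synthesis, of 0.59 in the distal small intestine, against -0.016 in the proximal small intestine (difference 0.56 ± 0.076, adjusted p = 0.0026).

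Among lower effects, Prss23, a secreted serine protease, had the smallest p, with effects of -0.013 in the distal small intestine, against 1.68 in the proximal small intestine (difference -1.73 ± 0.13, adjusted p = 1.7e-05); it had 81.5 ± 25.5 CPM in stem-called and 79.8 ± 21.6 CPM in other distal cells, and 38.6 ± 19.95 and 12.3 ± 7.73 CPM in those of the proximal small intestine. The brush border protease Mep1a, a meprin, went in opposite directions, at -0.81 in the distal small intestine, against 0.79 in the proximal small intestine (difference -1.64 ± 0.18, adjusted p = 3.8e-04), and so did Tmem117, at -0.60 in the distal small intestine, against 0.39 in the proximal small intestine (difference -1.03 ± 0.11, adjusted p = 3.8e-04). Vps13c had an effect of -0.72 in the distal small intestine, against 0.12 in the proximal small intestine (difference -0.89 ± 0.10, adjusted p = 9.3e-04). For Rab27b, a small GTPase of vesicle transport, the effect was -0.96 in the distal small intestine, against -0.11 in the proximal small intestine (difference -0.89 ± 0.11, adjusted p = 0.0015), and for Parm1 it was -1.06 in the distal small intestine, against -0.23 in the proximal small intestine (difference -0.87 ± 0.11, adjusted p = 0.0015). For all 12 of these genes the difference had the same sign in all 5 mice.

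For most crypt base genes the difference between the segments did not pass the test, although more did than the 0.528% over all genes. Of 34 stem cell genes tested in this comparison, 3 had a higher effect in the distal small intestine and none a lower one, with a median difference of 0.28 against 0.002 over all genes and 17 at an unadjusted p under 0.05, among them Pdgfa, at 2.24 in the distal small intestine, against 1.42 in the proximal small intestine (difference 0.77 ± 0.12, adjusted p = 0.0063). Of the 12 Paneth genes 2 passed, both with a higher effect in the distal segment: Lyz1, at 1.61 in the distal small intestine, against -0.43 in the proximal small intestine (difference 2.03 ± 0.45, adjusted p = 0.041), and Defa17, at 1.76 in the distal small intestine, against -0.48 in the proximal small intestine (difference 2.18 ± 0.47, adjusted p = 0.035); the share of Paneth-rich cells beside them in the distal segment is given above, and its part in this difference was not tested. Without high fat diet mouse 1, 56 genes had a higher and 60 a lower effect, without mouse 2, 17 and 25, without mouse 3, 17 and 36, without control mouse 1, 19 and 35, and without control mouse 2, 23 and 31. With no pairing of sums by library, the counts were 0 and 0.

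Against the colon, where Lgr5 also marks crypt base cells but Paneth cells are absent, 111 of 12133 genes had a higher effect in the distal small intestine (0.915%) and 82 a lower one (0.676%). Stem-called sums of the colon held from 27 to 279 cells per mouse. Without immune-marker cells, other cells of the colon fell from 470 to 211 in high fat diet mouse 1 and from 902 to 868 in mouse 3. In the distal segment of these mice they fell from 662 to 602 and from 1389 to 1378. The 2 organs' other cells thus differed in make-up, which these sums do not separate from RNA per cell. Aqp4, a water channel, had an effect of 1.70 in the distal small intestine, against -0.16 in the colon (difference 1.84 ± 0.19, adjusted p = 1.6e-04); its levels were 219 ± 40.4 CPM in stem-called and 70.0 ± 18.9 CPM in other distal cells, and 336 ± 49.9 and 358 ± 75.6 CPM in those of the colon (SD, n = 5). Soat1, which makes cholesterol esters, had 1.75 in the distal small intestine, against 0.36 in the colon (difference 1.37 ± 0.15, adjusted p = 3.5e-04). St6gal1, a sialyltransferase, was lower in stem-called cells of the colon, with effects of -0.11 in the distal small intestine, against -3.24 in the colon (difference 3.11 ± 0.23, adjusted p = 1.8e-05), and so were the calcium pump Atp2c2, at -0.021 in the distal small intestine, against -2.43 in the colon (difference 2.39 ± 0.26, adjusted p = 3.5e-04), and Ggh, a hydrolase of folate polyglutamates, at 0.81 in the distal small intestine, against -1.83 in the colon (difference 2.62 ± 0.29, adjusted p = 3.5e-04). Pik3ap1, an adaptor of phosphoinositide kinase, had an effect of 2.32 in the distal small intestine (difference 5.44 ± 0.51, adjusted p = 1.4e-04); its colon levels were near 0 in stem-called cells, so the size of this difference depends on the model.

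In the other direction, Idh1, the cytosolic isocitrate dehydrogenase, had an effect of -0.68 in the distal small intestine, against 0.92 in the colon (difference -1.61 ± 0.16, adjusted p = 1.4e-04), and Mt2, a metallothionein, of -1.19 in the distal small intestine, against 0.97 in the colon (difference -2.13 ± 0.21, adjusted p = 1.6e-04). Tm4sf5, a tetraspan membrane protein, had -0.98 in the distal small intestine, against 1.12 in the colon (difference -2.12 ± 0.20, adjusted p = 1.4e-04), Nqo1, a quinone reductase, -1.59 in the distal small intestine, against -0.11 in the colon (difference -1.49 ± 0.18, adjusted p = 4.0e-04), Faah, a fatty acid amide hydrolase, -0.31 in the distal small intestine, against 0.58 in the colon (difference -0.92 ± 0.10, adjusted p = 3.5e-04), and Slc25a35, a mitochondrial carrier, -1.09 in the distal small intestine, against 0.17 in the colon (difference -1.27 ± 0.15, adjusted p = 3.9e-04). Of 33 stem cell genes, 5 had a higher effect in the distal small intestine and none a lower one; Rgmb, a co-receptor of bone morphogenetic proteins, had 1.93 in the distal small intestine, against 1.21 in the colon (difference 0.70 ± 0.12, adjusted p = 0.0071) and Tnfrsf19 2.68 in the distal small intestine, against 1.14 in the colon (difference 1.48 ± 0.32, adjusted p = 0.028). Of the Paneth genes, 3 of 12 had a higher effect, with levels near 0 in the colon. Without high fat diet mouse 1, 79 genes had a higher and 39 a lower effect, without mouse 2, 71 and 41, without mouse 3, 56 and 37, without control mouse 1, 107 and 54, and without control mouse 2, 59 and 35. With no pairing by library, the counts were 3 and 1.

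**Figure D5:**
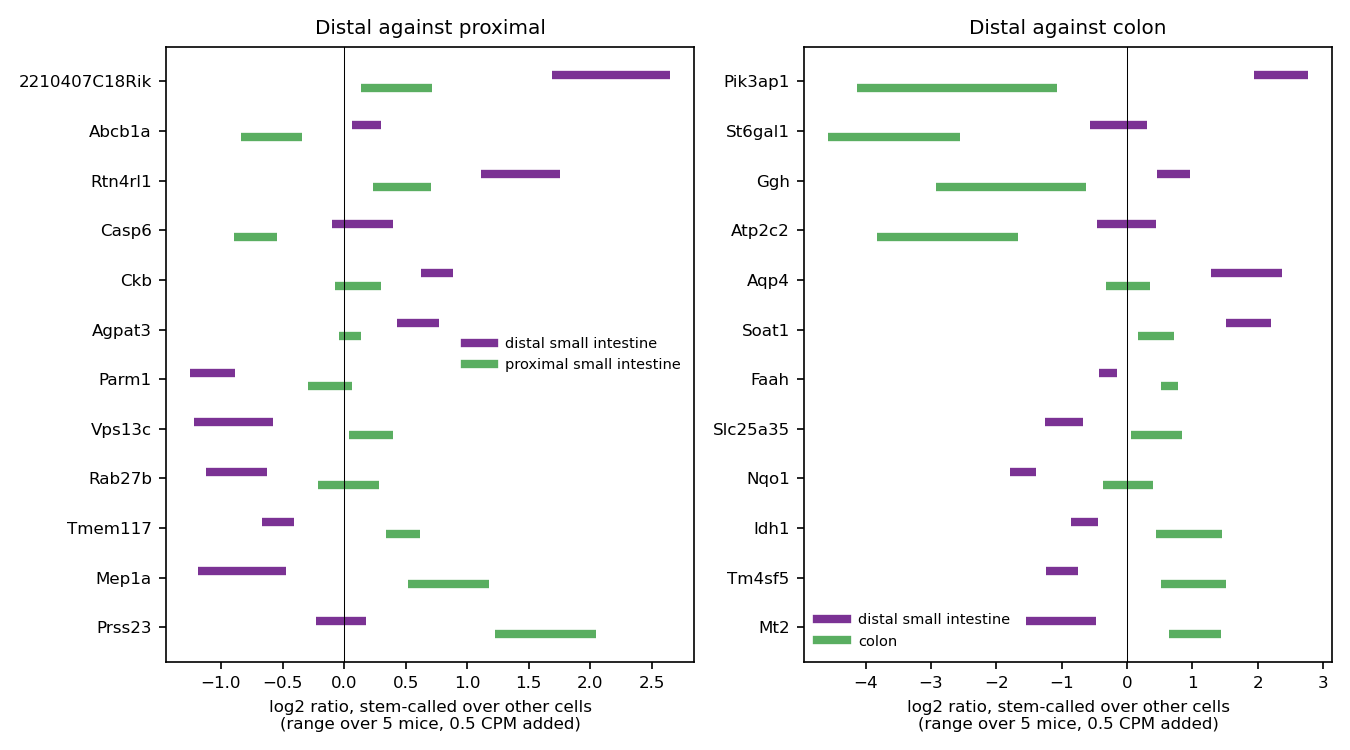
Log2 ratios of stem-called to other cells for the 6 genes in each direction with the smallest p in the comparison of the distal small intestine with the proximal (left) and with the colon (right). Each bar spans the 5 mice, upper bar distal, with 0.5 CPM added to both levels. Prss23 has bars on opposite sides of 1 on the left panel, and St6gal1 has its colon bar below -2 on the right.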

How the data were processed

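The authors deposited 1 table of raw counts, UMIs per gene and cell (17185 genes, 18919 cells), and a cell table with diet, organ, mouse and stem call. The genome build was mm10, per the submitters' processing notes; aligner, counting tool and cell filters are not given in the sources used here. In every one of the 18919 cells the counts added up to the deposited total. Few genes were seen in under 5 cells of a library, so a 0 in a library sets no limit. The cell table numbers the control mice 1 and 3 and the sample titles 1 and 2, and mouse 3 was read as the title's mouse 2, which had no other match.

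Counts were summed per mouse over stem-called and over other cells (10 sums of at least 20 cells). edgeR 4.0.16 in R 4.3.3 (TMM, filterByExpr, quasi-likelihood F test) compared them with the mouse as a block, since both sums come from 1 library of 1 animal. Lgr5 and eGFP counted toward library sizes and were not tested. Adjusted p-values are Benjamini-Hochberg over all genes tested, called under 0.05; the standard error is the log2 fold change over the root of F. The model was tested on simulated data. Alternatives used limma 3.58.1 (voom), DESeq2 1.42.0, other filters and other cells. scanpy 1.11.5 (Scrublet) marked 37 of 6495 cells (0.57%) as doublets, a low share, and these cells were kept. Named genes were the 15 largest called fold changes in each direction with 1 sign in 5 mice and at least 20 CPM, up to 4 called genes per list and direction, fixed names, and up to 6 per direction for differences between organs; other list members are given as examples chosen after their values were seen. Some genes that this rule names are not reported here. List symbols were matched by name or by RefSeq synonym. Positions are from GENCODE vM21 and promoters from RefSeq (GRCm38.p6), the build named mm10 elsewhere. The cell populations and gene lists were chosen with earlier results of these data known. Stem-called cells with Lgr5 and those with eGFP alone could not be compared, since 0 to 4 cells per mouse had eGFP alone.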

Additional observations from a re-analysis of the deposited data

Results flagged for a closer look

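In 6 of the 173 named genes, 1 mouse stood far from the other 4 in its log2 ratio of stem-called to other cells; chance gives about 1 in 20. High fat diet mouse 2 stood lowest for Alpi (-4.59, others -2.89 to -2.22), for Krt19 (-1.26, others -0.98 to -0.87), for Krt8 (-1.21, others -0.90 to -0.82) and for Pfkm (0.16, others 0.45 to 0.53). Control mouse 1 stood highest for Id3 (0.22, others -0.79 to -0.51) and for Mzb1 (-0.10, others -3.13 to -2.29).

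The stem-called effect differed between organs for the genes described above, by the test of the difference itself. Distal minus proximal, the log2 differences were 1.68 for 2210407C18Rik, 0.91 for Abcb1a, 0.76 for Casp6, 0.68 for Ckb, 0.56 for Agpat3 and 0.87 for Rtn4rl1. They were -1.73 for Prss23, -1.03 for Tmem117, -1.64 for Mep1a, -0.89 for Vps13c, -0.87 for Parm1 and -0.89 for Rab27b. Distal minus colon, they were 3.11 for St6gal1, 5.44 for Pik3ap1, 1.84 for Aqp4, 2.385 for Atp2c2, 1.37 for Soat1 and 2.62 for Ggh. They were -2.12 for Tm4sf5, -1.61 for Idh1, -2.13 for Mt2, -0.92 for Faah, -1.27 for Slc25a35 and -1.49 for Nqo1.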

How the results depend on the processing

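Of 4406 values of single genes under an alternative, 4141 kept their direction and side of the threshold, 246 lost the call, 9 gained it and 10 reversed. With the call and sums at 3000 UMIs per cell, 1228 genes were higher and 1552 lower (205 and 461 at 2-fold), the diet difference was called for 16 and 11, distal against proximal for 12 and 22 and against colon for 27 and 18; Lyz1 was -0.037. Without the replicate block, which ignores the pairing by mouse, 904 genes were higher and 1015 lower, 0 and 0 against the proximal segment and 3 and 1 against the colon. Above the median cell cycle share, 1716 genes were higher and 216 were 2-fold lower; Bub1 was -0.074, Klf6 0.041, Junb 0.037, Zfp36 0.073, Ccl5 0.0099 and Ighm 0.11. With every cell weighted equally, 145 were higher and 451 lower at 2-fold. Without Paneth-rich cells Defa17 was -0.20, and without immune-marker cells Ighm was 0.33 (0.27 with Cd74 left out of the immune list). limma voom called 114 and 164 genes against the proximal segment and 176 and 131 against the colon, and no filter on low counts gave 100 higher against the proximal segment. Leaving out each mouse gave 2035 to 3022 genes higher and 2284 to 2829 lower; 0 higher and 0 to 23 lower between diets; 17 to 56 and 25 to 60 against the proximal segment; 56 to 107 and 35 to 54 against the colon; and 164 to 344 and 168 to 392 for 3 or more UMIs against 1. The causes were not tested. DESeq2 called 2207 and 2628 genes, and without the tenth of cells with most UMIs, an alternative added after seeing the data, 2359 and 2665 were called. The comparison of cells with Lgr5 and cells with eGFP alone, and its alternatives, were not run. One UMI in the shallowest distal sum is 0.622 CPM, which limits what can be seen of rarer genes. The limit is higher in the colon, where the stem-called sum of high fat diet mouse 2 held 321496 UMIs.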

Other observations

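Several smaller gene groups held genes that were higher and genes that were lower, where 25.7% of all genes tested were higher and 24.0% lower. Among 9 tested genes of reserve or regenerating stem cells, 6 were higher and 3 lower. Lrig1, an inhibitor of EGF receptors, had 286, 230.1, 202, 211 and 242 CPM in stem-called cells, against 126, 97.6, 91.8, 104 and 98.1 CPM in other cells (log2 fold change 1.17 ± 0.055, adjusted p = 4.8e-07). Hopx (0.49 ± 0.063), Yap1 (0.55 ± 0.059) and Clu (2.55 ± 0.32, at 3.28 ± 1.43 CPM in stem-called cells and 0.456 ± 0.2 CPM in other cells; SD, n = 5) were higher, and Ly6a (-1.96 ± 0.32), Anxa3 (-2.06 ± 0.35) and the keratin Krt19 (-0.98 ± 0.056) were lower. Ly6a and Anxa3 were near the floor, at means of 1.22 and 1.27 CPM in stem-called cells, against 6.08 and 5.22 CPM in other cells. Neither had a UMI in stem-called cells of high fat diet mouse 2. Of 16 genes of EGF receptor and ERK feedback, 5 were higher and 1 lower; Phlda1 had 98.7 ± 44.6 CPM in stem-called cells and 38.4 ± 15.9 CPM in other cells (SD, n = 5; log2 fold change 1.32 ± 0.063, adjusted p = 4.8e-07). Of 12 genes of bone morphogenetic protein signalling, which acts toward the villus, 2 were higher and 4 lower. Rgmb was higher (log2 fold change 1.93 ± 0.078, adjusted p = 2.9e-07), and the ligand Bmp2 (log2 fold change -1.56 ± 0.31, adjusted p = 0.0022) and the target Id3 (log2 fold change -0.45 ± 0.11, adjusted p = 0.0059) were lower. Bmp2 was low in both populations, at means of 2.15 CPM in stem-called and 7.53 CPM in other cells.

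Among defence genes, called members were mostly lower. Of 11 antimicrobial and interferon genes, 7 were lower and none higher. Reg3g, a lectin that binds bacteria, had 104, 192, 2312, 174 and 167 CPM in stem-called cells, against 322, 757, 4465, 412 and 513 CPM in other cells (log2 fold change -1.48 ± 0.11, adjusted p = 5.1e-06), and Reg3b a log2 fold change of -1.52 ± 0.15. Of 17 glutathione and xenobiotic genes, 9 were lower, among them Nqo1 (-1.59 ± 0.10) and Gpx1 (-0.56 ± 0.06), and 3 higher, among them Ephx1 (0.81 ± 0.15). Of 16 genes known to respond to tissue dissociation, 1 was higher, Jun (log2 fold change 0.49 ± 0.13, adjusted p = 0.0099). Jund, Zfp36, Junb and Klf6 were lower, with log2 fold changes between -0.16 and -0.30. These 4 of 16 are near the 24.0% that were lower over all genes tested. The dissociation list had a median log2 fold change of 0.14, and median log2 ratios of -0.15, -0.16, -0.15, 0.54 and 0.05 by mouse.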
